A study of Mus musculus with 13 samples.

Results

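The genes described here carry out purine nucleotide breakdown and nucleoside uptake in the small intestine. They were chosen by symbol in the count table, with earlier results of these data known. They number 6 of the 21868 symbols listed there: Nt5e, Ada, Pnp, Xdh, Slc28a1 and Slc28a2. Dietary nucleic acids reach the gut lumen as nucleotides, which phosphatases on the surface of enterocytes, the absorptive cells of the villus, strip to nucleosides. Nt5e (CD73) is a surface enzyme that removes the last phosphate from AMP to give adenosine, Ada (adenosine deaminase) turns adenosine into inosine, Pnp (purine nucleoside phosphorylase) splits inosine and guanosine into sugar phosphate and base, and Xdh (xanthine dehydrogenase) oxidises hypoxanthine and xanthine to uric acid. Slc28a1 and Slc28a2 encode the sodium-coupled concentrative nucleoside transporters CNT1, which prefers pyrimidine nucleosides, and CNT2, which prefers purine nucleosides. Several of these genes are known to be most abundant at the villus tip, where old enterocytes are shed.

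The libraries came from epithelial cells of mouse jejunum, gated by flow cytometry on the epithelial protein EpCAM and against the leukocyte proteins CD45, CD11b, CD3 and B220, and held poly(A)-selected RNA. Mice on a breakfast-skipping schedule (BSF, 2 libraries) were fed from ZT 16 to 24, those on a lunch-skipping schedule (LSF, 3 libraries) from ZT 12 to 16 and again from ZT 20 to 24, and those on a dinner-skipping schedule (DSF, 2 libraries) from ZT 12 to 20, each for 2 weeks, where ZT is the time in hours on the clock set by the light cycle. The other groups were a control (con, 3 libraries) and a group labelled as breakfast skipping combined with control (BSF_C, 3 libraries). The sources used here do not give when con and BSF_C were fed, the strain, sex and age of the mice, or the time at which tissue was taken. The design text says that the mice shared an environment and cage. Libraries are labelled as biological replicates, with nothing on whether each came from 1 animal, so p-values measure the spread between these libraries only. One count table covered all 13 libraries.

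Totals ran from 4851239 to 5202146 counts in con and from 7127769 to 8589351 in the other groups. The con libraries stood apart from the rest over all genes: the chi-square per degree of freedom was between 54.0 and 77.9 for pairs of a con library with another group, against 1.37 to 3.93 within groups and 1.61 to 12.3 between the other groups. The labels name no batch, so a batch particular to con and the control condition cannot be told apart. Enterocyte markers were present in every library, with summed levels of 10 genes between 6546 and 7306 CPM (counts scaled to the size of the library) in con and between 13161 and 18824 CPM elsewhere, and none at 0. By the test described below, 8 of these 10 were higher and 2 lower in each other group than in con. Goblet, Paneth and enteroendocrine markers summed to between 7863 and 9129 CPM in con and between 5830 and 7403 CPM elsewhere. Of those 10, 6 or 7 were nevertheless higher than in con and 2 lower. Markers of skin keratinocytes summed to between 506 and 600 CPM in con and between 4.17 and 6.55 CPM elsewhere. Markers of leukocytes summed to between 29.5 and 36.8 CPM in con, with 3 of 12 at 0, and between 171 and 291 CPM elsewhere, and markers of heart muscle to between 7.06 and 11.1 CPM in con, with 5 of 8 at 0, and between 88.1 and 278 CPM elsewhere. Fibroblast and endothelial markers summed to at most 1.84 CPM in con, with 5 of 10 at 0, and to between 14.5 and 57.5 CPM elsewhere, and kidney tubule markers to at most 1.25 CPM in con, with 6 of 8 at 0, and to between 8.34 and 38.8 CPM elsewhere. These markers moved together with every difference from con given below, and their part in those differences was not tested.

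The 6 genes lie on 5 chromosomes of the GRCm38 build, all annotated as protein coding in GENCODE release M21: Nt5e at chr9:88327197-88372092 on the plus strand, Ada at chr2:163726584-163750239 on the minus strand, Pnp at chr14:50931082-50965237 on the plus strand, Xdh at chr17:73883895-73950196 on the minus strand, Slc28a1 at chr7:81114799-81170416 on the plus strand and Slc28a2 at chr2:122426477-122461137 on the plus strand. Reads of Nt5e, Ada, Xdh and Slc28a1 are not shared with another gene at 50 bases: none of the 50-base windows of their main transcripts occurred in a transcript of another gene. For Slc28a2, 39.8% of the windows also occurred in its neighbour Gm14085, so reads from those windows cannot be told apart. Gm14085 had 0 counts in all 13 libraries, and 40.6% of its own windows occurred in Slc28a2. For Pnp, 25.2% of the windows occurred in other genes: 15.1% in its copy Pnp2 and 23.1% in Gm49342, a gene model on the same strand that shares 718 exon bases with Pnp. Pnp therefore stands with some uncertainty on how such reads were assigned, a rule not given in the sources used here.

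Ada and Slc28a1 were the members whose level changed most between the feeding schedules, and Slc28a2 is the closest relative of Slc28a1 among the members, so the bases just upstream of these 3 genes are shown, read from the RefSeq promoter table of build GRCm38.p6. Each runs 5′ to 3′ on the strand of its gene from base 121 to base 2 before the annotated start, and capitals mark a GC box (GGGCGG, or CCGCCC where the box lies on the other strand). The windows are chr2:163750241-163750360 (minus strand) for Ada, chr7:81114678-81114797 (plus strand) for Slc28a1 and chr2:122426314-122426433 (plus strand) for Slc28a2.
Ada: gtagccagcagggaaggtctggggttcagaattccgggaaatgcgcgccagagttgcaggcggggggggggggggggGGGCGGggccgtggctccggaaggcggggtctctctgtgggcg
Slc28a1: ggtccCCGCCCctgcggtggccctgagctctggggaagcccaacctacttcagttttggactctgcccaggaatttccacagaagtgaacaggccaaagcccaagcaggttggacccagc
Slc28a2: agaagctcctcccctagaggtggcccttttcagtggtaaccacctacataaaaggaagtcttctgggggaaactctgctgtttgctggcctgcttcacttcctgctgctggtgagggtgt
The Ada stretch holds 72.5% G and C, with a run of G leading into the GC box 44 bases before the start. The Slc28a1 stretch holds 60.8% G and C, with its box 116 bases before the start, and the Slc28a2 stretch holds 53.3% and no box. Over the 250 bases before the start, on both strands, 6 short motifs were searched in the 5 members with an entry, which leaves out Xdh, and in all 32851 starts of the table. GGGCGG was found for 4 of 5 members (Ada, Nt5e, Pnp and Slc28a1) against 32.7% of all starts, CCAAT for 3 of 5 (Ada, Pnp and Slc28a2) against 33.8%, and the GATA-type AGATAA for 1 of 5 (Slc28a2) against 9.99%. TATAAA, the E-box CACGTG and GTTAAT were found for 0 of 5 members, against 12.4%, 6.02% and 6.43% of all starts. For Nt5e and Pnp the RefSeq start lay inside the GENCODE span given above. Bases 121 to 2 before that start were at chr9:88327488-88327607 for Nt5e, where all 120 fell in annotated exons. For Pnp they were at chr14:50944182-50944301. These are matches of letters only.

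All 6 genes were higher in each of the other groups than in con, and past that difference only Ada, Slc28a1 and Xdh differed between feeding schedules by the test used. Both transporters and Nt5e stood furthest from con, by 6.82-fold to 18.3-fold, Xdh and Ada by 3.02-fold to 5.13-fold, and Pnp by 1.70-fold to 1.77-fold. Ada and Slc28a1 were higher in LSF than in BSF and in DSF by 1.56-fold to 1.76-fold. In BSF_C none of the 6 genes differed from BSF by that test. The test was edgeR's quasi-likelihood test on all 14300 genes that passed a filter on low counts, with Benjamini-Hochberg adjustment over those genes and a threshold of 0.05, and CPM values are scaled by edgeR's trimmed means (TMM). All 6 genes passed the filter, 5 of them also on the con libraries alone. Nt5e passed it through the other groups, where it was high, so its call against con was set in part by the filter.

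**Figure D1:**
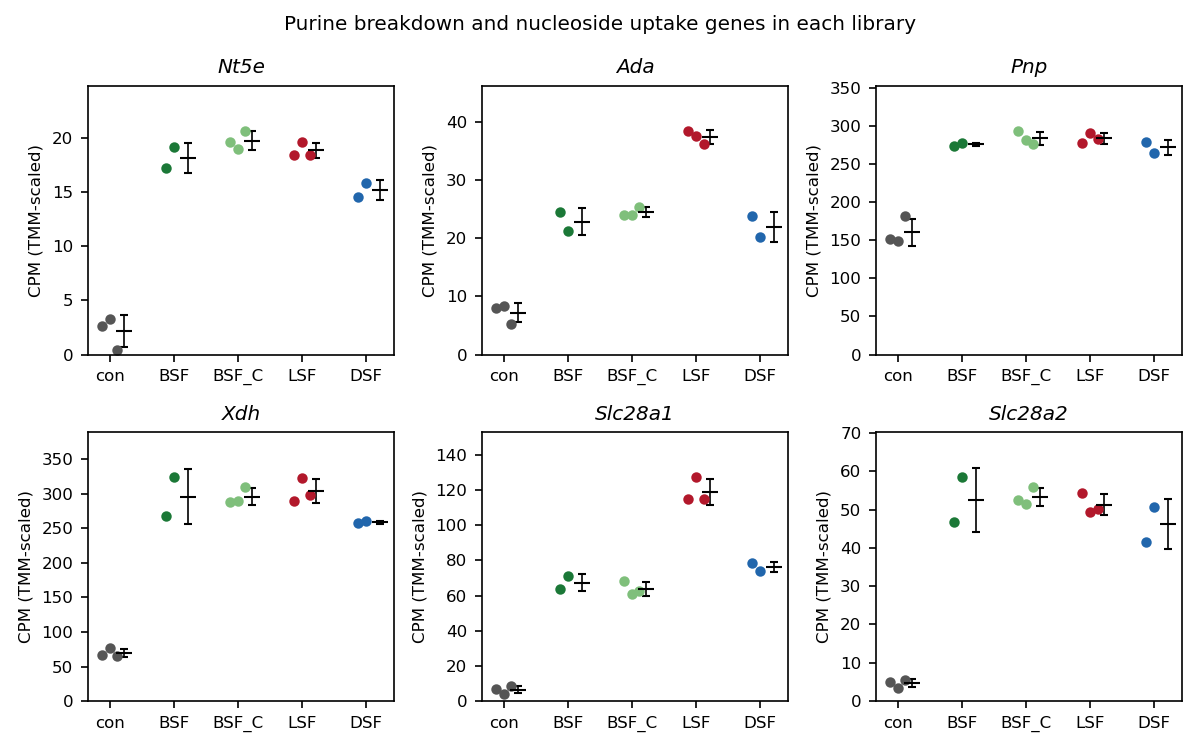
Level of each gene in CPM (TMM-scaled, vertical axis) in the 13 libraries by group, with dots for libraries and bars for the group mean and SD. For all 6 genes the con libraries lie below every other library, and for Ada and Slc28a1 the 3 LSF libraries lie above every other library.

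Against con, 6 of 6 members were called higher in BSF, where 38.3% of all genes tested were, in BSF_C (39.8% of all genes), in LSF (38.9%) and in DSF (36.6%). Among them Nt5e passed the filter only through the groups outside con, so its calls were set in part by the filter. The median log2 fold change of the members was highest in LSF at 2.72 and lowest in DSF at 2.33, with BSF at 2.56 and BSF_C at 2.62, and the median over all genes was between 0.10 and 0.12 in these comparisons. In each of these comparisons no library of con reached the lowest library of the other group for any member, which held in that direction for 41.6%, 39.7%, 39.1% and 40.2% of all genes. With scaling by library totals alone, the median over all genes was 0.29 in BSF and 0.20 in LSF, and 6 of 6 members were still called higher in all 4 comparisons, from 0.92 upward on the log2 scale. These 4 comparisons share the con libraries and are not independent of each other. In these bulk samples a change in the share of cells that express a gene and a change in its RNA per cell cannot be told apart.

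Nt5e, which makes adenosine outside the cell, was the member with the lowest counts. It did not pass the filter on the con libraries alone, so its calls against con were set in part by the filter. Its level was 2.68, 3.32 and 0.460 CPM in the con libraries, from 13, 16 and 2 counts. It was 17.2 and 19.1 CPM in BSF, 19.6, 18.9 and 20.7 CPM in BSF_C, 18.5, 19.6 and 18.5 CPM in LSF, and 14.6 and 15.8 CPM in DSF. The con libraries lay far below all others, and both DSF libraries lay below all 8 libraries of BSF, BSF_C and LSF. Nt5e rose against con by 8.19-fold in BSF (log2 fold change 3.03, SE 0.25, edgeR adjusted p = 4.43e-16), 8.87-fold in BSF_C, 8.47-fold in LSF and 6.82-fold in DSF. The 0.460 CPM of con replicate 3 weighed on this size: leaving that library out gave log2 fold changes between 2.33 and 2.71, and leaving out con replicate 2 gave 3.20 to 3.58. The difference of LSF over DSF was 0.31 on the log2 scale, with a 95% interval from -0.00087 to 0.62 and an adjusted p of 0.187. That of BSF over DSF was 0.26 (interval -0.08 to 0.60), so the lower DSF values did not pass the test.

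Ada, which converts adenosine to inosine, was at 8.05, 8.31 and 5.29 CPM in con. Its level was 24.5 and 21.3 CPM in BSF, 24.1, 23.97 and 25.4 CPM in BSF_C, and 23.8 and 20.2 CPM in DSF. In LSF it was 38.5, 37.6 and 36.1 CPM. Libraries of BSF, BSF_C and DSF lay together between 20.2 and 25.4 CPM, with con below them and LSF above them and no overlap on either side. Ada rose against con by 3.13-fold in BSF, 3.36-fold in BSF_C, 5.13-fold in LSF and 3.02-fold in DSF, with log2 fold changes of 1.64 (SE 0.17), 1.75 (SE 0.15), 2.36 (SE 0.15) and 1.59 (SE 0.17) and adjusted p values from 4.98e-21 to 5.02e-12. It was lower in BSF than in LSF by 0.72 on the log2 scale (log2 fold change -0.72, SE 0.12, edgeR adjusted p = 2.80e-06) and higher in LSF than in DSF by 0.77 (SE 0.12, adjusted p = 1.30e-06). Between BSF and DSF it differed by 0.05, with an interval from -0.22 to 0.33.

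Pnp, which splits inosine and guanosine, had the highest level per length of the 6 genes and the smallest change. It was at 152, 149 and 181 CPM in con. Its level was 274 and 277 CPM in BSF, 294, 281 and 276 CPM in BSF_C, 278, 291 and 282 CPM in LSF, and 279 and 265 CPM in DSF. All 10 libraries outside con fell within a narrow band above the highest con library. Pnp rose against con by 1.72-fold in BSF, 1.77-fold in BSF_C, 1.77-fold in LSF and 1.70-fold in DSF, with log2 fold changes between 0.76 and 0.82 (SE 0.06 to 0.07, adjusted p from 8.04e-18 to 7.25e-15). Its differences among the other groups were between -0.04 and 0.06 on the log2 scale, and their 95% intervals all lay between -0.17 and 0.19. The copy Pnp2, an enzyme of the same kind that shares reads with Pnp, rose against con by 2.79-fold to 3.04-fold. The overlapping model Gm49342 was at 137 CPM ± 17.6 (SD, n = 3) in con and rose by 0.58 to 0.66 on the log2 scale. Neither was called between any pair of the other groups that was compared.

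Xdh, which makes uric acid, was at 67.3, 76.5 and 65.1 CPM in con. It was at 267 and 324 CPM in BSF, 288, 290 and 310 CPM in BSF_C, 290, 323 and 299 CPM in LSF, and 257 and 260 CPM in DSF. The DSF libraries were the lowest outside con, and the BSF libraries lay at either end of the range formed by BSF, BSF_C and LSF. Xdh rose against con by 4.25-fold in BSF, 4.25-fold in BSF_C, 4.36-fold in LSF and 3.71-fold in DSF, with edgeR adjusted p values from 1.07e-32 to 1.79e-28. It was higher in LSF than in DSF by 0.23 on the log2 scale (SE 0.07, edgeR adjusted p = 0.00980), a difference of 1.17-fold. This call was lost without LSF replicate 2 (0.19, adjusted p = 0.101), without DSF library S2 (0.22, adjusted p = 0.120), without DSF library S3 (0.24, adjusted p = 0.0806) and with scaling by library totals alone (0.17, adjusted p = 0.0624). The similar difference of BSF over DSF, 0.19 (interval 0.05 to 0.34), did not pass (adjusted p = 0.0693), although it was 0.32 with an adjusted p of 0.00870 without BSF replicate 1 and 0.047 without BSF replicate 2.

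Slc28a1 (CNT1), the transporter that prefers pyrimidine nucleosides, had the largest change against con of any member in LSF and DSF. It was at 7.02, 4.16 and 8.52 CPM in con, from 34, 20 and 37 counts. Its level was 63.9 and 70.9 CPM in BSF, 68.5, 60.7 and 62.6 CPM in BSF_C, and 78.4 and 74.2 CPM in DSF. In LSF it was 115, 127 and 115 CPM. Both DSF libraries lay above the BSF and BSF_C libraries, and the 3 LSF libraries lay above all others. Slc28a1 rose against con by 10.4-fold in BSF, 9.81-fold in BSF_C, 18.3-fold in LSF and 11.7-fold in DSF, with log2 fold changes of 3.37 (SE 0.14), 3.29 (SE 0.13), 4.19 (SE 0.12) and 3.55 (SE 0.14) and adjusted p values from 2.76e-35 to 4.51e-28. It was lower in BSF than in LSF by 0.82 (log2 fold change -0.82, SE 0.08, edgeR adjusted p = 1.60e-11) and higher in LSF than in DSF by 0.64 (SE 0.08, adjusted p = 1.61e-08). The difference of BSF from DSF was -0.18, with an interval from -0.36 to 0.01 and an adjusted p of 0.243.

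Slc28a2 (CNT2), the purine-preferring transporter, rose as far above con as Slc28a1 in BSF but did not share its level in LSF. It was at 4.95, 3.53 and 5.52 CPM in con, from 24, 17 and 24 counts. Its level was 46.7 and 58.4 CPM in BSF, 52.5, 51.3 and 56.0 CPM in BSF_C, 54.4, 49.4 and 50.2 CPM in LSF, and 41.6 and 50.8 CPM in DSF. All libraries outside con lay far above con. Their groups overlapped one another, apart from DSF, whose 2 libraries lay just below those of BSF_C. Slc28a2 rose against con by 11.3-fold in BSF, 11.4-fold in BSF_C, 11.0-fold in LSF and 9.91-fold in DSF (log2 fold changes 3.50, 3.52, 3.46 and 3.31, SE 0.15 to 0.17, adjusted p from 2.18e-27 to 2.25e-24). The difference of BSF from LSF was 0.04 on the log2 scale, with an interval from -0.15 to 0.23, and that of LSF from DSF was 0.15, with an interval from -0.05 to 0.35. Neither passed the test.

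**Figure D2:**
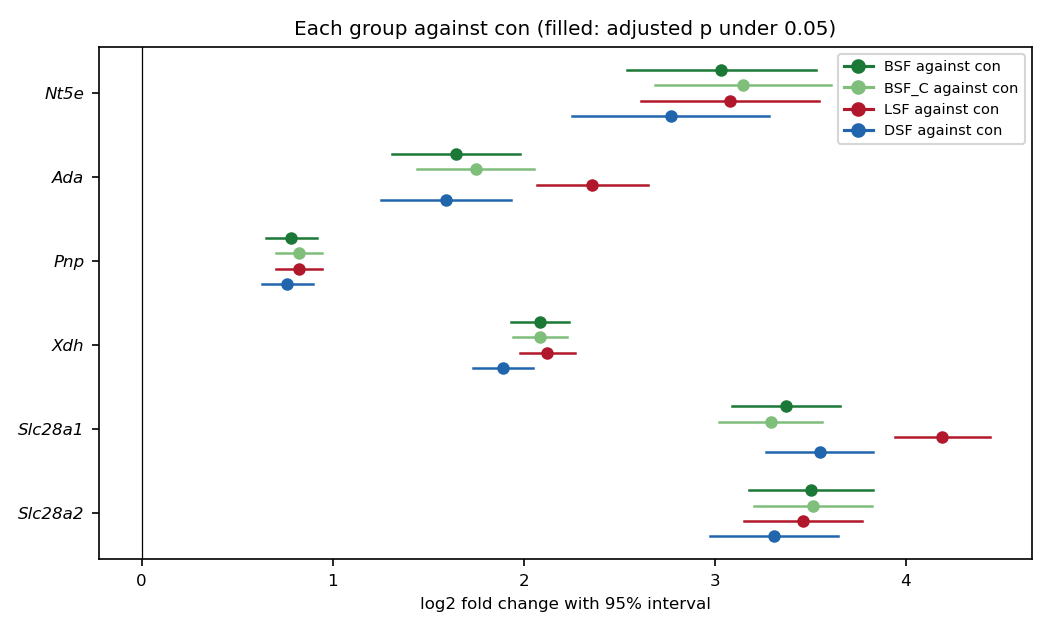
Log2 fold change (horizontal axis) of each gene in BSF, BSF_C, LSF and DSF against con, with the 95% interval of the edgeR fit and filled points for an adjusted p under 0.05. All 24 points are filled, from 0.76 for Pnp in DSF to 4.19 for Slc28a1 in LSF, and the LSF points of Ada and Slc28a1 lie to the right of the other 3 groups.

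Between the feeding schedules, Ada and Slc28a1 were called in both comparisons with LSF, Xdh in that of LSF with DSF, and Nt5e, Pnp and Slc28a2 in none. Of the 6 members, 2 (Ada and Slc28a1) were called lower in BSF than in LSF, where 15.9% of all genes tested were called lower, 13.4% higher and 29.3% in either direction. Of the 6, 3 (Ada, Slc28a1 and Xdh) were called higher in LSF than in DSF, where 8.97% of all genes were called higher, 6.91% lower and 15.9% in either direction. None was called between BSF and DSF, where 12% of all genes were called in either direction (5.77% higher and 6.26% lower), and at an unadjusted p under 0.05 the count was 1 of 6 (Xdh). DESeq2's Wald test and limma-voom also called 0 of 6 there. These shares of all genes moved with the libraries in the fit: the 1720 genes called between BSF and DSF fell to 798 without DSF S2, 919 without DSF S3, 920 without BSF replicate 1 and 876 without BSF replicate 2. The 4190 called between BSF and LSF fell to 2557 and 2583 without BSF replicate 1 and 2, and the 2271 called between LSF and DSF fell to 1288 and 1430 without DSF S2 and S3. With only the 2 groups compared in the fit, the counts were 2537, 5113 and 3082 in that order. The LSF libraries of Ada and Slc28a1 lay above every BSF and DSF library, a separation that held for 28% of all genes in BSF against LSF (BSF lower) and for 22.6% in LSF against DSF (LSF higher). Groups as small as BSF and DSF separated in 28% of all genes with BSF higher and in 28% with BSF lower, so the separation of these groups for Nt5e, Xdh and Slc28a1 was common among genes. Median differences over the members were -0.04, 0.27 and 0.12 on the log2 scale in these 3 comparisons, beside medians over all genes of 0.01, -0.00037 and -0.00052. With scaling by library totals alone, the median over all genes was 0.08 for BSF against LSF and -0.06 for LSF against DSF. The share of calls that were higher then went from 45.8% to 62.9% in the first and from 56.5% to 38% in the second, while Ada and Slc28a1 kept their direction and their calls in both.

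BSF_C did not differ from BSF in any of the 6 genes by edgeR's test (0 of 6 called, 0 of 6 at an unadjusted p under 0.05, and 0 of 6 by DESeq2 and by limma-voom), in a comparison where 19 genes, 0.133% of those tested, were called. The differences of BSF_C from BSF lay between -0.08 (Slc28a1, interval -0.25 to 0.09) and 0.11 (Nt5e, interval -0.18 to 0.41) on the log2 scale. For the other 4 genes the intervals ran from -0.14 to 0.35 for Ada, from -0.08 to 0.17 for Pnp, from -0.13 to 0.13 for Xdh and from -0.18 to 0.21 for Slc28a2. Groups of 2 and 3 libraries overlapped for all 6 genes.

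**Figure D3:**
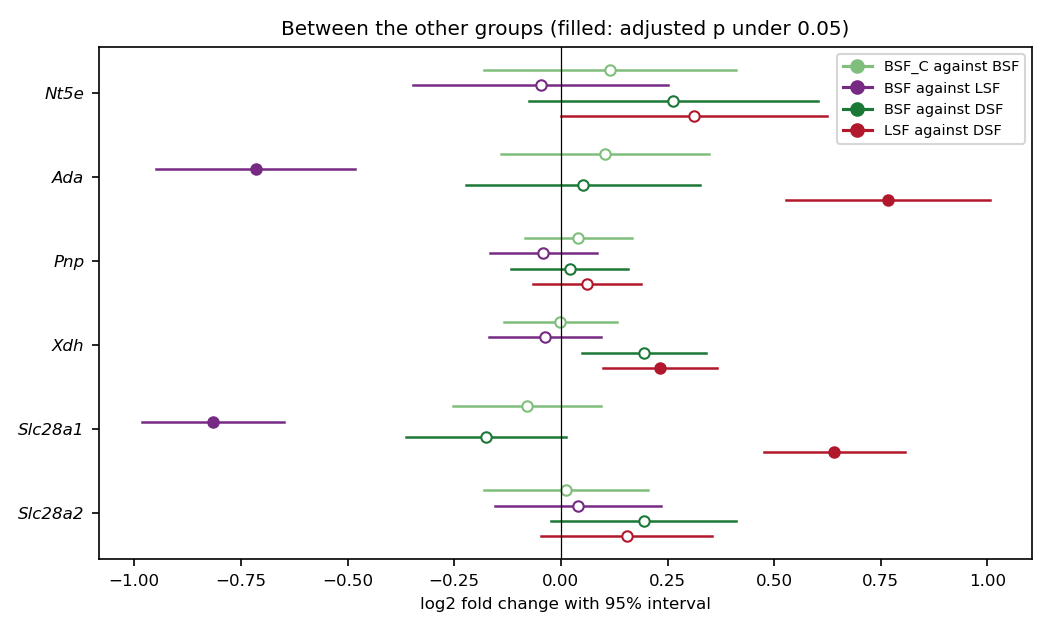
Log2 fold change (horizontal axis) of each gene in BSF_C against BSF, BSF against LSF, BSF against DSF and LSF against DSF, with the 95% interval of the edgeR fit and filled points for an adjusted p under 0.05. Filled points occur for Ada and Slc28a1 in both comparisons with LSF, and for Xdh in LSF against DSF at 0.23.

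Levels of different genes are compared here per kilobase (kb) of exon. Full exon lengths were used, although 39.8% of the windows of Slc28a2 and 25.2% of those of Pnp also occurred in other genes. Their levels per kb, and the place of Slc28a2 in the order, therefore depend on how such reads were assigned, which is not known. In con the order was Pnp at 40.4 CPM per kb ± 4.49 (SD, n = 3), Xdh at 7.59 ± 0.656, Ada at 3.61 ± 0.834, Slc28a1 at 2.22 ± 0.751, Slc28a2 at 1.11 ± 0.244 and Nt5e at 0.251 ± 0.175. Only Ada and Slc28a1 among neighbours in that order had libraries that overlapped. In LSF Slc28a1 held the second place, with Pnp at 71.3 CPM per kb ± 1.71 (SD, n = 3), Slc28a1 at 40.3 ± 2.45, Xdh at 33.1 ± 1.86, Ada at 18.7 ± 0.596, Slc28a2 at 12.2 ± 0.636 and Nt5e at 2.19 ± 0.0796. In BSF, BSF_C and DSF Pnp led at 68.3 to 71.3 CPM per kb, Xdh followed at 28.2 to 32.3 and Slc28a1 at 21.7 to 25.9. Ada and Slc28a2 came next at 11.0 to 12.7 CPM per kb with libraries that overlapped, and Nt5e came last at 1.77 to 2.30.

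The third concentrative transporter, Slc28a3 (CNT3), which takes both purine and pyrimidine nucleosides, moved the other way. It was at 115, 124 and 128 CPM in con, at 45.6 and 47.6 CPM in BSF, at 45.9, 47.6 and 46.7 CPM in BSF_C, at 41.5, 39.4 and 35.8 CPM in LSF, and at 51.7 and 52.2 CPM in DSF. Con lay above all other libraries for this gene, and LSF below them. Slc28a3 fell against con by 1.65 in LSF, by 1.39 in both BSF and BSF_C, and by 1.23 in DSF on the log2 scale (SE 0.08 to 0.09). It was higher in BSF than in LSF by 0.26 and lower in LSF than in DSF (log2 fold change -0.42, SE 0.09, edgeR adjusted p = 0.000457). The makeup of the family was taken as the share of each gene in the summed CPM per kb of the 3 genes. Slc28a3 made up 82.4% ± 4.42 (SD, n = 3) of that sum in con and 8.57% ± 0.539 in LSF, with 14.3% to 15.1% in the means of the other 3 groups. Slc28a1 made up 11.7% ± 3.40 in con, 70.2% ± 1.94 in LSF and 53.8% to 59.6% in the others, and Slc28a2 made up 5.87% ± 1.04 in con, 21.3% ± 1.53 in LSF and 25.3% to 31.5% in the others. The sum itself was 18.8 CPM per kb ± 1.37 in con, 40.2 to 43.4 in BSF, BSF_C and DSF, and 57.5 ± 2.29 in LSF. These shares are a description and were not tested. They also depend on how reads that Slc28a2 has in common with Gm14085 were assigned, so the share of Slc28a2 may be too low.

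**Figure D4:**
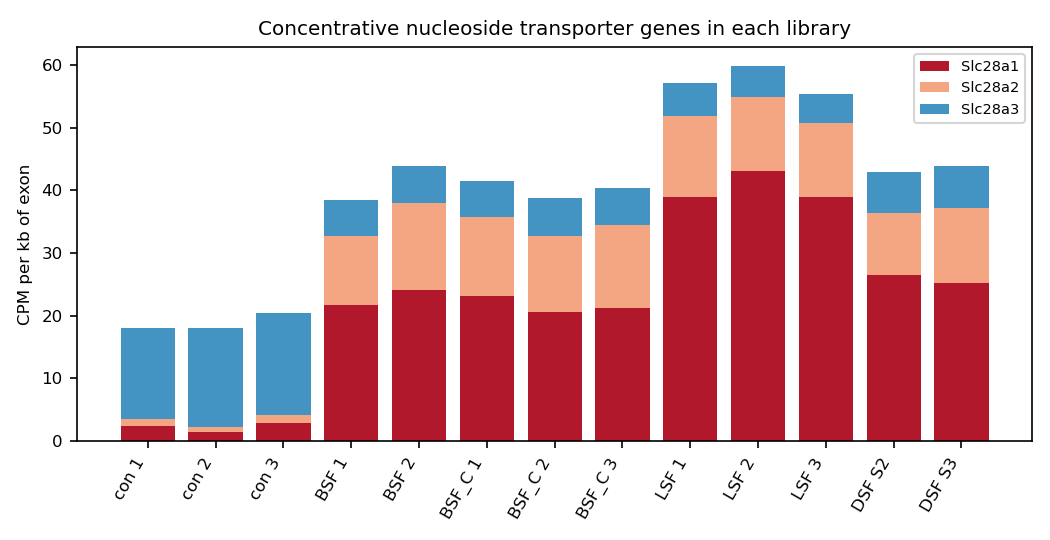
Stacked levels of Slc28a1, Slc28a2 and Slc28a3 in CPM per kb of exon (vertical axis, from 0) in each of the 13 libraries. Slc28a3 fills most of the bar in the 3 con libraries and Slc28a1 most of it in the 10 others, and the 3 LSF bars are the tallest.

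Of 79 other genes of purine and pyrimidine metabolism and transport listed, 67 were tested. Against con, LSF had 30 of them higher and 21 lower, DSF 26 and 16, BSF 30 and 17, and BSF_C 30 and 20. Among all genes tested, the share called lower was 33% in LSF, 31.1% in DSF, 31.9% in BSF and 33.2% in BSF_C. Their median log2 fold changes lay between 0.14 (BSF) and 0.27 (LSF), nearer to the medians over all genes given above than to those of the members. Between schedules, 12 were higher and 15 lower in BSF against LSF, 6 higher and 1 lower in BSF against DSF, and 15 higher and 6 lower in LSF against DSF, and 0 of 67 differed between BSF_C and BSF. The list had calls in both directions in each of these comparisons but the last, while the calls of the 6 members went in 1 direction in any comparison. Members and lists were chosen with earlier results of these data known, so this contrast is a description only.

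Extracellular nucleotide breakdown, the step before Nt5e, had 5 of 9 tested genes higher and 0 lower in both BSF and LSF against con, and 6 higher and 0 lower in both BSF_C and DSF. Alpi, the intestinal alkaline phosphatase of the brush border, was at 542, 605 and 645 CPM in con, at 1832 and 1894 CPM in BSF, at 1967, 1918 and 1849 CPM in BSF_C, at 3013, 3016 and 2944 CPM in LSF, and at 1851 and 1789 CPM in DSF. Its relative Akp3 was at 33.0, 39.7 and 43.5 CPM in con, at 464 and 469 CPM in BSF, at 498, 466 and 442 CPM in BSF_C, at 1228, 1264 and 1220 CPM in LSF, and at 291 and 301 CPM in DSF. Enpp3, which cleaves nucleotides outside the cell, had a mean of 4.14 CPM in con, against 94.4 in LSF, 33.6 in DSF and 43.2 in both BSF and BSF_C. All 3 genes were highest in LSF, with no overlap, as Ada and Slc28a1 were. The list as a whole was mixed, with 3 of 9 higher and 1 lower in LSF against DSF. In BSF against LSF, 1 was higher and 5 were lower. Alppl2, another gene of the list, went the other way, with means of 9.87 CPM in LSF, 15.2 in BSF, 16.3 in BSF_C and 18.3 in DSF. Alpi and Akp3 are close relatives, and how reads common to both were assigned is not known. Over DSF, LSF was higher by 0.72 (SE 0.05) for Alpi, 2.06 (SE 0.06) for Akp3 and 1.49 (SE 0.10) for Enpp3 on the log2 scale. Entpd8, an ectonucleotidase, rose by 0.31 in DSF and by 0.29 in LSF against con, and in BSF it differed by 0.13 without passing the test.

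Among enzymes that act on purine bases, Gda, the guanine deaminase that feeds xanthine to Xdh, was at 189, 173 and 153 CPM in con, at 1090 and 1105 CPM in BSF, at 1046, 1053 and 1090 CPM in BSF_C, at 1028, 1088 and 1091 CPM in LSF, and at 831 and 839 CPM in DSF. Gda was lowest in DSF among the 4 groups outside con, as Xdh was, and it was higher in LSF than in DSF by 0.36 (SE 0.06) and in BSF than in DSF by 0.39 (SE 0.06). Urad, an enzyme of the steps after uric acid, fell against con by 1.45 in BSF and 1.53 in DSF on the log2 scale, and Urah, of the same route, rose by 1.03 in LSF. Of the urate transporters, 5 of 8 tested were higher and 1 lower in BSF against con. Among them, Slc16a9, of the monocarboxylate transporter family, had a mean of 1.04 CPM in con, from 15 counts, against 18.9 CPM in LSF and 3.21 CPM in DSF. DSF library S2 and con replicate 2 were both at 2.08 CPM for this gene. Slc17a4 rose by 1.16 in LSF and 0.88 in DSF on the log2 scale. Slc2a9 rose by 0.46 in LSF and differed by -0.14 from con in DSF, where the test was not passed. Abcg2, an exporter of urate, rose by 0.93 in LSF and 0.72 in DSF.

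The surface peptidase gene Dpp4 (CD26) and the adenosine receptor genes, listed together here, went in both directions. Dpp4 was at 82.3, 72.5 and 68.6 CPM in con, at 191 and 209 CPM in BSF, at 186, 192 and 208 CPM in BSF_C, at 252, 276 and 274 CPM in LSF, and at 190 and 192 CPM in DSF. Like Ada it was highest in LSF, by 0.49 over DSF (SE 0.07, edgeR adjusted p = 6.24e-08). The receptor gene Adora2b rose from a mean of 1.99 CPM in con to between 17.0 and 18.3 CPM in the other groups and was called in none of the 4 comparisons among them. Adora1, another adenosine receptor gene, fell against con by 0.77 in BSF and 1.43 in DSF.

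Salvage and synthesis of purines gave calls in both directions. Aprt, which rebuilds AMP from adenine, rose against con by 0.88 in BSF and 1.30 in LSF, while the nucleoside kinase genes Adk and Dck fell by 0.53 and 1.28 in LSF. Of 12 tested genes of purine synthesis, 6 were higher and 3 lower in BSF against con, and 3 were higher and 5 lower in LSF. Between BSF and LSF, 6 of these 12 were higher in BSF and 0 lower, the reverse of Ada and Slc28a1, with Pfas higher by 0.56 and Gmps by 0.49. Prps2, which makes the ribose donor of purine synthesis, fell against con by 0.93 in BSF and 1.15 in LSF. Of the intracellular nucleotidases and AMP deaminases, 3 of 7 were higher and 2 lower in BSF against con. Nt5c rose by 0.71 there, Ampd3 fell by 0.88 and Nt5m fell by 0.39. In the pyrimidine list, Cda, the cytidine deaminase, was at 81.3, 58.8 and 62.2 CPM in con and 171, 189 and 179 CPM in LSF, Dpyd, of uracil breakdown, rose by 1.48 in LSF, and the uridine kinase gene Uck2 fell by 1.59 there. The lysosomal nucleoside transporter gene Slc29a3 fell by 1.40 in BSF and 1.37 in LSF against con, and the equilibrative transporter gene Slc29a1 rose by 0.57 in LSF and differed by 0.28 from con in DSF without passing the test.

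**Figure D5:**
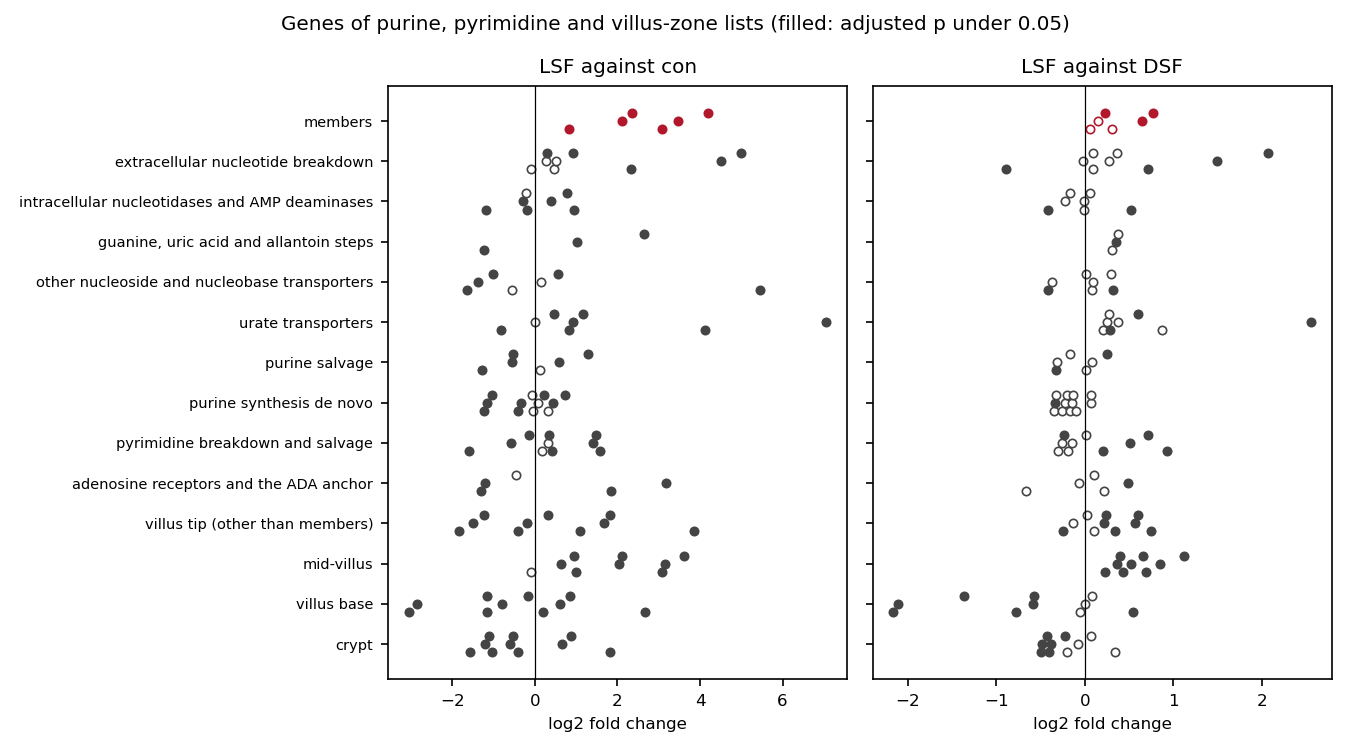
Log2 fold change (horizontal axis) of every tested gene of 14 lists, the members in red at the top, in LSF against con (left) and LSF against DSF (right), with filled points for an adjusted p under 0.05. Members lie between 0.82 and 4.19 on the left and between 0.06 and 0.77 on the right, while most other lists spread to both sides of 0.

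Other genes known to be highest at the villus tip did not share the members' direction as a list. Members and lists were chosen with earlier results known, so this contrast too is a description only. Of 10 such genes, LSF had 5 higher and 5 lower than con, BSF 4 and 4, and BSF_C and DSF 4 and 5 each. Apoa4, an apolipoprotein of lipid absorption, rose by 3.84 in BSF and Krt20, a keratin of mature enterocytes, by 1.86, while Cdh1, the epithelial cadherin, fell by 1.43 and the stress-response factor gene Atf3 by 3.07. In LSF against DSF, 6 of the 10 were higher and 1 was lower. Of 9 genes known from the middle of the villus, 8 were higher and 1 (Slc7a8) lower than con in BSF, with Lct, the lactase, higher by 3.46 and Slc2a2, a sugar transporter gene, by 2.53. All 9 of these genes were lower in BSF than in LSF and all 9 were higher in LSF than in DSF, the direction of Ada and Slc28a1. Of 10 genes of the crypt, where cells divide, 7 were higher and 0 lower in BSF against LSF, and 0 were higher and 6 lower in LSF against DSF. For 10 genes of the villus base these counts were 4 higher and 1 lower, and 1 higher and 6 lower. Among all genes tested, 15.9% were called lower and 13.4% higher in BSF against LSF. The shares in LSF against DSF were 8.97% higher and 6.91% lower. The summed enterocyte markers were 18698 CPM in LSF, 14282 in BSF and 13329 in DSF, sums in which abundant genes weigh most. Of the 10 genes, 1 was higher, 5 were lower and 4 were not called in BSF against LSF. In LSF against DSF, 7 were higher, 2 lower and 1 not called. How far such shifts between villus zones go with the levels of Ada and Slc28a1 was not tested. In LSF, DSF and BSF in turn, mean summed markers were 261, 260 and 93.4 CPM for heart muscle, 285, 289 and 181 CPM for leukocytes, 48.4, 36.8 and 15.2 CPM for fibroblasts and endothelium, and 18.9, 20.7 and 17.8 CPM for kidney tubule. Their part in the differences of Ada, Slc28a1 and Xdh between these groups was not tested.

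The genes whose pattern was most like each member were ranked by Pearson's r of log2 CPM among 10880 genes with a mean of at least 5 CPM, as a description. Over all 13 libraries, which share the gap between con and the rest, the leading genes were Dpep1 for Ada (r = 0.991), Tent4b for Nt5e (0.995), Asah2 for Xdh (0.998), Slc27a4 for Pnp (0.995), Cyp3a11 for Slc28a1 (0.997) and Hnrnpa0 for Slc28a2 (0.995). Over the 10 libraries outside con they were Tm4sf5 for Ada (r = 0.981), Ces1f for Nt5e (0.942), Slc7a2 for Xdh (0.913), Scnm1 for Pnp (0.916), Mtmr4 for Slc28a1 (0.989) and Spidr for Slc28a2 (0.969). No member led with the same gene in both rankings.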

How the data were processed

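Polyadenylated RNA of sorted jejunal epithelial cells was sequenced, per the labels' protocols. The authors deposited a table of raw, unnormalized counts of 21868 gene symbols in 13 libraries. FastQC 0.11.8, cutadapt 2.9, STAR 2.7.2e, DESeq2 1.32.0 and builds GRCm38 and mm10 are named per the submitters' processing notes. The sources used here do not give the counting rule or strand setting. The labels number the DSF libraries otherwise than the table (S2, S3), so they carry no replicate number. Genes were kept by filterByExpr of edgeR 4.0.16 under R 4.3.3 (14300 genes, 99.91% of counts), scaled by TMM and tested two-sided by the quasi-likelihood test, with group as the only term in 1 fit of 13 libraries (8 residual degrees of freedom). The SE is the size of the log2 fold change over the square root of F, and intervals are at 95%. It can be too small at few counts. The medians over all genes given with TMM are what remained after that scaling, and they were not subtracted from the fold changes. Alternatives used DESeq2 1.42.0 and limma 3.58.1. The script was tested on simulated data. Exon lengths came from GENCODE M21 (99.2% of symbols matched). Named genes were the members, their copies and, from each list, the 3 with the highest mean CPM and the 2 called ones with the largest change. Cda and Slc29a1 were named outside that rule, as was Alppl2 after its values were seen. The overlapping model of Pnp was added after its values were seen. Members and lists were chosen with earlier results of these data known. Sequences are from RefSeq.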

Additional observations from a re-analysis of the deposited data

How the results depend on the processing

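Ada, Nt5e, Pnp, Slc28a1 and Slc28a2 stayed on the same side of the threshold in all 8 comparisons, each called difference keeping its direction, under every alternative tried: DESeq2 size factors, library totals, all genes unfiltered, a fit of the 2 groups alone, thinning to the smallest total, limma-voom, DESeq2's Wald test, each library left out in turn and, added after seeing the data, con left out. Of the members' values under alternatives other than leaving out 1 library, 385 kept their side, 4 gained a call and 1 lost it. All 5 concern Xdh. Its difference of BSF over DSF passed with con left out (0.20, adjusted p = 0.0111), with library totals (0.21, adjusted p = 0.0453), with no filter (0.20, adjusted p = 0.0490) and with only the 2 groups compared (0.20, adjusted p = 0.00703), and lay between 0.047 (without BSF replicate 2) and 0.32 with each library left out. Its difference of LSF over DSF did not pass with library totals (0.17) and lay between 0.19 and 0.27 with each library left out. Genes called between BSF and DSF numbered 1720, 1111 by DESeq2, 995 after thinning, 798 to 920 with each library left out, 2528 with con left out and 2537 with only the 2 groups. Between BSF and LSF there were 4190, 2557 to 3493 with each library left out, and up to 5113 (only the 2 groups). Between LSF and DSF there were 2271, 1288 to 1866 with each left out, and up to 3082 (only the 2 groups). Between BSF_C and BSF there were 19, 29 with con left out, 2 by DESeq2, 4 by limma-voom, 30 with no filter, 32 with only the 2 groups, and 12 to 23 with each left out (12 without BSF_C replicate 2). Where a group was left with 1 library, it was assumed to vary like the others. The cause of these changes was not tested. Same-numbered libraries did not deviate together (15 pairs, r from -0.14 to 0.08), so this check showed no pairing by number. It can show only a pairing that moves many genes, and the groups are small. With the replicate number as a block, over the 11 numbered libraries, no member's call changed and 9729 genes were called between BSF and con, 10284 between BSF_C and con, 10136 between LSF and con, 3598 between BSF and LSF and 18 between BSF_C and BSF. Nt5e in con rests on 31 counts, which limits the precision of its fold changes most among the members.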
